A study of Mus musculus with 6 samples.

Results

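The genes described here encode NRF2 and its inhibitor KEAP1, the enzymes that make, recycle and use glutathione and thioredoxin, the enzymes that remove superoxide and peroxides, the glutathione S-transferases, the metallothioneins and the enzymes that supply NADPH. They were chosen by name, as a list of 47 genes. A member was measured where the array annotation assigned at least 1 probe set to it alone, and then took the values of its probe set of highest mean. This held for 43 of the 47, out of 18193 genes on the array. Prdx1 was left out because its 5 probe sets were annotated to a second gene as well, and Prdx5, Prdx6 and G6pdx are not analysed here.

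RNA came from tracheal mesenchyme of adult male C57Bl/6 mice, in 3 control samples (labelled normal control) and 3 samples taken 48 h post injury (hpi), after the mice had inhaled 500 ppm SO2 for 4 h. No transgene or drug was part of either group. The epithelium had been peeled away after 23 min in dispase. Tissue from 4 mice went into every sample, and p-values therefore rest on the spread of pools and not of single mice. Each sample was hybridized to 1 Affymetrix mouse array, and values are expression on the log2 scale after robust multi-array analysis (RMA), so that a difference of 1 is a 2-fold change. The brightness of different probe sets cannot be compared, so values are compared between samples of the same gene only.

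NRF2, the product of Nfe2l2, is a transcription factor that KEAP1 marks for degradation until oxidants or electrophiles modify KEAP1. NRF2 then enters the nucleus and, with small MAF proteins, binds the antioxidant response element (ARE) of genes for detoxification, glutathione and thioredoxin metabolism and NADPH supply. In the airway, secretory epithelial cells are rich in glutathione S-transferases and other detoxifying enzymes, while macrophages are known for heme oxygenase. Much of NRF2 control acts on the protein, which these arrays do not measure.

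Cell type markers were read beside the label mesenchyme. All 8 fibroblast markers lay above the 20th percentile of all values (3.66) on at least 1 array. Their list mean was 11.9 to 12.2 in controls and 12.0 to 12.2 at 48 hpi. The measured markers of every other list also passed this mark on at least 1 array, so it does not set mesenchyme apart. Markers of luminal airway epithelium were also present. The mean of 11 such markers was 10.45, 9.64 and 10.22 in controls 1 to 3 and 10.25, 9.18 and 8.63 at 48 hpi, and none of the 11 lay below the 20th percentile on every array. Of 13 monocyte and macrophage markers 12 rose, while 4.97% of all genes rose. Their list mean was 6.71 to 7.03 in controls and 8.75 to 9.29 at 48 hpi. Because the tissue was measured in bulk, more cells of a type and more RNA per cell cannot be told apart.

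Samples with the same replicate number deviated together in both groups. A second fit, which took the replicate number as a block and is called the block here, is therefore given where it changed a call. A gene was called where its adjusted p from limma, over all 45037 probe sets, was under 0.05.

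Promoters are shown for 4 members: Akr1b8, which had the largest fold change of the list, Gclm, a classical NRF2 target, and the neighbouring metallothionein genes Mt1 and Mt2. The windows are from RefSeq (GRCm38.p6) and run from 250 bases before to 30 bases after the annotated start. All are on the plus strand, at chr6:34353896-34354175 for Akr1b8, chr3:122245307-122245586 for Gclm, chr8:94178839-94179118 for Mt1 and chr8:94172368-94172647 for Mt2. Capitals mark matches, on either strand, to the ARE core TGACNNNGC or to the core of the metal response element (MRE), which was searched as TGCACNC or TGCGCNC. MREs are bound by the zinc sensor MTF1.
Akr1b8: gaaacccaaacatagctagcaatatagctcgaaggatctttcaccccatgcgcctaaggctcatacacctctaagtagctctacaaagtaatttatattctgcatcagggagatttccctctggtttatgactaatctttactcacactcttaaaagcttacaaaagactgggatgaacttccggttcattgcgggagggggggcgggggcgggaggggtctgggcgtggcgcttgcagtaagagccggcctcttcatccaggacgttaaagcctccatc
Gclm: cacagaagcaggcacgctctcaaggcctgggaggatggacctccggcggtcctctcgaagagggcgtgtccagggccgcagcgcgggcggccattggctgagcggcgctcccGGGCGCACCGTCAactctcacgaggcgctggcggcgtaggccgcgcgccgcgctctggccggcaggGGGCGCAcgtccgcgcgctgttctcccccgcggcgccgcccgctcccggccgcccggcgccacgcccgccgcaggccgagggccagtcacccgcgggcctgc
Mt1: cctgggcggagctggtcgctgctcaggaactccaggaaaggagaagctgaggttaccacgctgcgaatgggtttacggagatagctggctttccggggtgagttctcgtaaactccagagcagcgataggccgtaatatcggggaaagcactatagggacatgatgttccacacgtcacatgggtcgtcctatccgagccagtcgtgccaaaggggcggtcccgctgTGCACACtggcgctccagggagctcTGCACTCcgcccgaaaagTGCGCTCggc
Mt2: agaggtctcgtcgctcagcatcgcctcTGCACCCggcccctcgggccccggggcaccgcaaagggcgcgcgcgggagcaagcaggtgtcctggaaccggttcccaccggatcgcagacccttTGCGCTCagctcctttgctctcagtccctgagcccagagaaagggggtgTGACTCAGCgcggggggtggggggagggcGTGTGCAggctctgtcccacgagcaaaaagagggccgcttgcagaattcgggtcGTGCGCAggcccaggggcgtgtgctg
Akr1b8 held neither motif in this stretch. In Gclm the first run of capitals is an ARE core that overlaps an MRE core. Mt1 held 3 MRE cores and no ARE core, and Mt2 held 4 MRE cores and 1 ARE core, which is the longer run of capitals. Over the full windows of 300 bases, 10 of 38 measured members with a window (26.3%) held an ARE core, against 14.0% of all 27025 genes in the table. An MRE core was held by 10 members (26.3%) and by 28.2% of all genes. The members with an ARE core were Gclm, Gsta3, Gstm5, Mgst1, Mt2, Nfe2l2, Pgd, Sod1, Srxn1 and Txnrd1. Hmox1, Gclc, Gsr, Sod3 and Gsta4 had no window and were not searched for either motif. A match describes the letters only.

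At 48 hpi 3 of the 43 members rose and 0 fell. The 3 were Akr1b8, Txn1 and Prdx4. This share of 6.98% compares with 4.97% of all genes that rose, while 1.24% of all genes fell. At an unadjusted p under 0.05 in limma, 15 members were higher and 3 lower, or 34.9% and 6.98%, against 14.6% and 9.29% of all genes. In an equal-variance test, 0 members passed in either direction, against 0.225% of all genes that were higher and 0.022% that were lower. With the block 12 members were higher (27.9%, against 8.77% of all genes) and 2 were lower (4.65%, against 4.64%). The log2 fold change was above 0 in 31 members and below 0 in 12, with a median of 0.17, while the median of all genes was -0.01. All 3 values at 48 hpi lay above all 3 controls in 14 members (32.6%, against 17.2% of all genes) and below them in 2, Ephx1 and Cat (4.65%, against 13.1%). Within the same-numbered pairs, 24 members were higher at 48 hpi in all 3 (55.8%, against 26.6% of all genes) and 9 were lower in all 3 (20.9%, against 27.3%). Only Akr1b8 was called without each sample in turn. Leaving out any 1 sample other than 48 hpi replicate 2 left Akr1b8 as the single rise, while 1.92% to 3.32% of all genes rose. Leaving out 48 hpi replicate 2 gave 5 rises, while 3.56% of all genes rose.

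**Figure D1:**
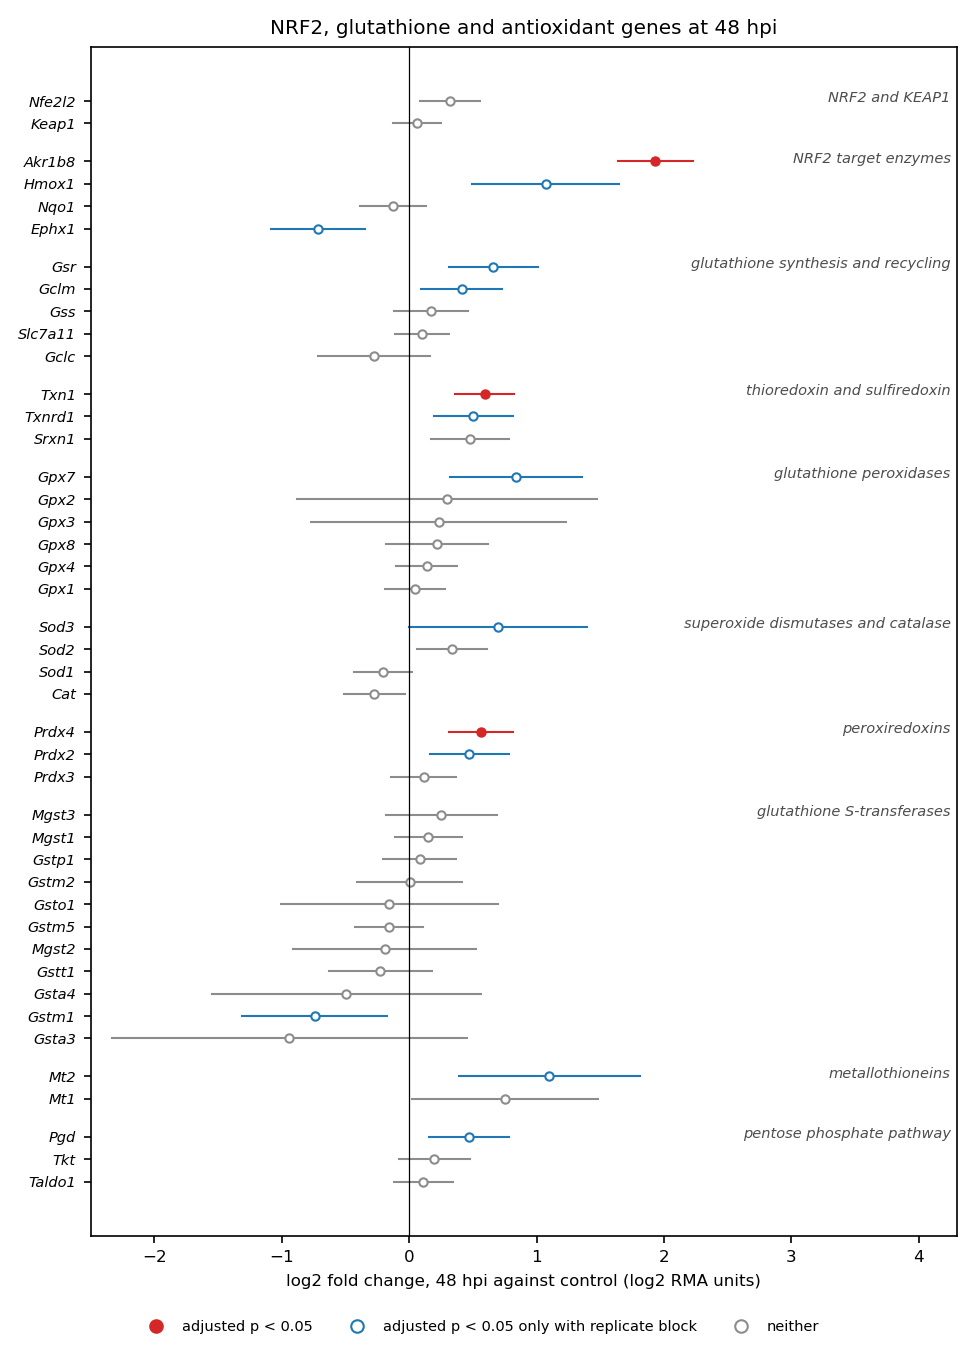
Difference in log2 RMA expression between 48 hpi and control (horizontal axis) of the 43 measured members (vertical axis, grouped by role), with points at the estimate and bars at its 95% interval from limma, not adjusted for the number of genes (n = 3 samples a group, red for called genes, blue for those called with the block alone, grey for the others). Akr1b8 stands apart at 1.93, the thioredoxin genes lie together between 0.48 and 0.59, and the glutathione S-transferases run from -0.94 to 0.25.

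Akr1b8, an aldo-keto reductase that reduces reactive aldehydes and is known to be induced by fibroblast growth factor in fibroblasts, changed most. It was 7.40, 7.33 and 6.97 in the controls and 9.18, 9.16 and 9.15 at 48 hpi. The injured samples lay close together, and the lowest of them was far above the highest control. The rise was 3.82-fold, a log2 fold change of 1.93 ± 0.12 (SE, n = 3, adjusted p = 0.000608). Without single samples it ranged from 1.80 to 2.02, with adjusted p from 0.00162 to 0.00638. Without both samples numbered 1, it was 2.01 (adjusted p = 0.00505). In the equal-variance test, the adjusted p was 0.0518. Akr1b10, a close relative of Akr1b8 and not a member, had a log2 fold change of 0.04 ± 0.16 (adjusted p = 0.913).

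NRF2 and KEAP1 themselves were not called. Nfe2l2 was 9.49, 9.46 and 9.33 in controls and 9.89, 9.66 and 9.68 at 48 hpi. The groups did not overlap, but the log2 fold change of 0.32 ± 0.10 did not pass (adjusted p = 0.139, and 0.0665 with the block). Keap1 was 8.32, 8.44 and 8.38 in controls and 8.48, 8.45 and 8.40 at 48 hpi. Its groups overlapped, and the log2 fold change of 0.07 had a 95% interval from -0.12 to 0.25 (adjusted p = 0.713).

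Beside Akr1b8, 3 members were grouped as NRF2 target enzymes, which were Nqo1, Hmox1 and Ephx1. Other NRF2 targets, such as Gclm, stand in other groups below. Of these 3 enzymes 0 were called by limma, while 1 was higher and 1 lower at an unadjusted p under 0.05 and with the block. Of all genes 14.6% were higher and 9.29% lower at that unadjusted p in limma, and 8.77% and 4.64% with the block. Nqo1, the quinone reductase most often used as a readout of NRF2, was 7.68, 7.69 and 7.79 in controls and 7.65, 7.39 and 7.74 at 48 hpi. Its groups overlapped, and the log2 fold change was -0.13, with a 95% interval from -0.39 to 0.13 (adjusted p = 0.580). Hmox1, heme oxygenase, which breaks down heme, was 5.37, 5.57 and 5.53 in controls and 6.59, 6.02 and 7.08 at 48 hpi. All 3 injured samples were higher, by unequal amounts, and replicate 2 was the lowest of them. The log2 fold change was 1.07 ± 0.24, with adjusted p = 0.0600, and 0.0202 with the block. Hmox1 was called without 48 hpi replicate 2 (adjusted p = 0.0154) and in none of the other fits that left out 1 sample (adjusted p up to 0.158). The macrophage markers given above were higher in the same 3 samples, and their part in the Hmox1 values was not tested.

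Ephx1 encodes microsomal epoxide hydrolase, which hydrates reactive epoxides. It was 10.15, 9.94 and 9.91 in controls and 9.54, 9.36 and 8.97 at 48 hpi, without overlap. Its log2 fold change of -0.71 ± 0.16 had adjusted p = 0.0536, and 0.00988 with the block. It stood at the edge of the threshold, since it also passed when an intensity trend was allowed in the shared spread (0.0464). The luminal epithelial marker mean was lowest in the same sample, 48 hpi replicate 3, and its part in these values was not tested.

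**Figure D2:**
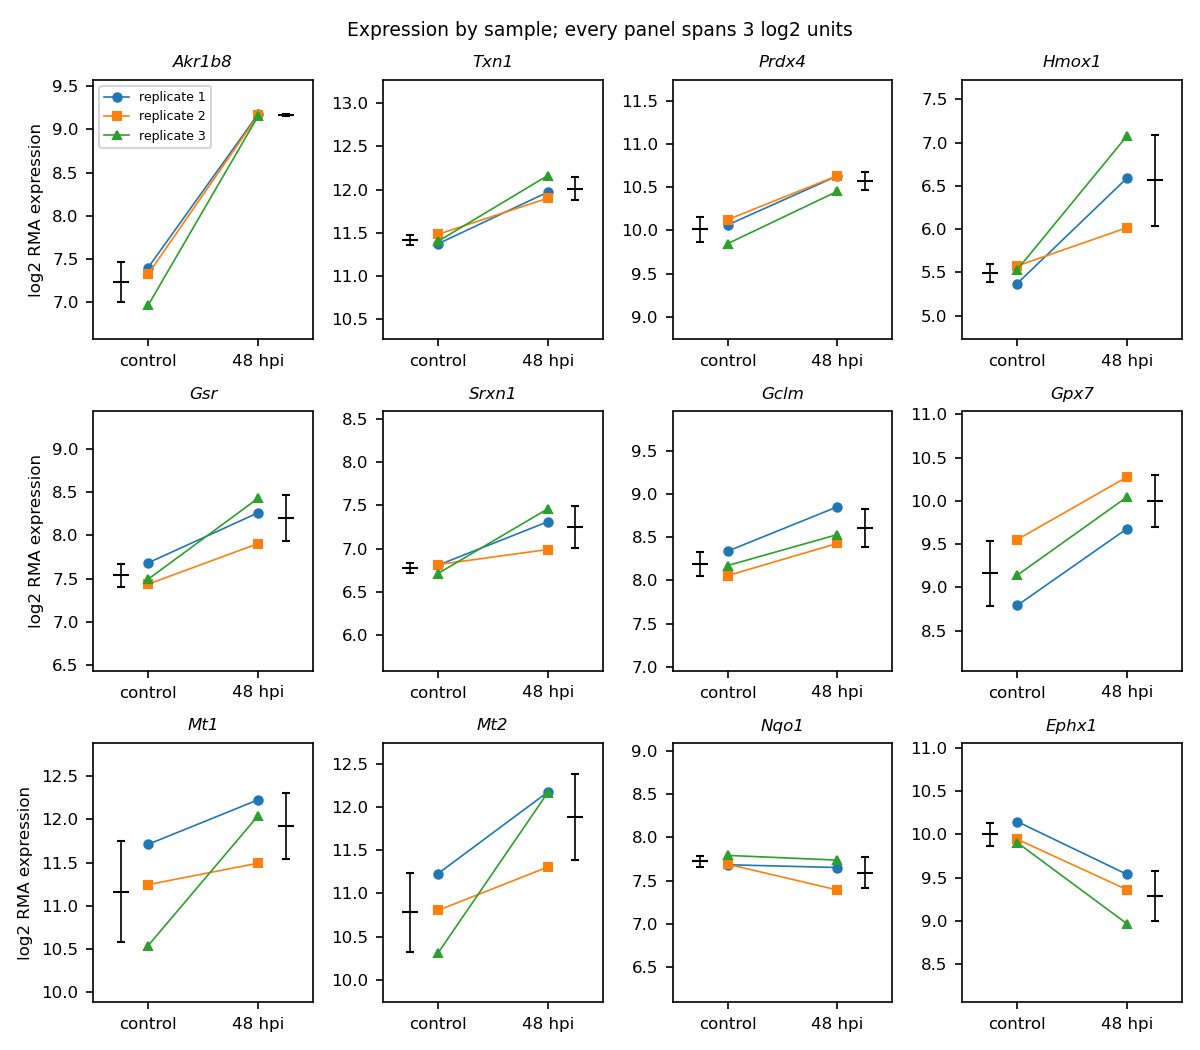
Log2 RMA expression (vertical axes, each spanning 3 units) of 12 members in control and 48 hpi samples (horizontal axes), with 1 symbol per sample, lines joining samples of the same replicate number, and mean ± SD of 3 samples beside them. Akr1b8 rose from 7.23 to 9.16, Nqo1 stayed between 7.39 and 7.79 in all 6 samples, and Ephx1 was lower in all 3 injured samples.

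Among genes of glutathione synthesis and recycling, 0 of 5 were called by limma. At an unadjusted p under 0.05 in limma 2 were higher, against 14.6% of all genes. With the block 2 were called higher, against 8.77% of all genes. Gclm, the modifier subunit of the enzyme that joins glutamate and cysteine, was 8.34, 8.05 and 8.17 in controls and 8.85, 8.43 and 8.53 at 48 hpi. Its values were higher in every injured sample than in any control, with a log2 fold change of 0.41 ± 0.14 (adjusted p = 0.153, and 0.0299 with the block). Gclc encodes the catalytic subunit of the same enzyme. It was 8.82, 8.30 and 8.98 in controls and 8.60, 8.23 and 8.43 at 48 hpi, with overlap and a log2 fold change of -0.28 (95% interval -0.72 to 0.17, adjusted p = 0.479).

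Gsr, glutathione reductase, which regenerates glutathione from its oxidized dimer with NADPH, was 7.68, 7.44 and 7.49 in controls and 8.26, 7.91 and 8.43 at 48 hpi. All injured samples exceeded all controls, and the log2 fold change of 0.66 ± 0.15 had adjusted p = 0.0565, and 0.0163 with the block. Without 48 hpi replicate 2, Gsr was called (adjusted p = 0.0298). Gss, glutathione synthetase, had a log2 fold change of 0.17 (adjusted p = 0.506). Slc7a11, the cystine transporter, was 3.86, 3.69 and 3.63 in controls and 3.83 in each of the 3 injured samples. These values are near the 20th percentile of all probe sets, where RMA compresses differences, and its log2 fold change was 0.10 (adjusted p = 0.600).

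Of the 3 thioredoxin genes 1 was called higher, while 4.97% of all genes rose. Txn1, cytosolic thioredoxin, was 11.37, 11.48 and 11.40 in controls and 11.97, 11.90 and 12.16 at 48 hpi. It rose 1.51-fold, with a log2 fold change of 0.59 ± 0.10 (adjusted p = 0.0213). The call held in 1 of the 6 fits that left out a sample, with adjusted p from 0.0409 to 0.0817, and its second, dimmer probe set did not move with it (-0.08). Txnrd1, the selenoenzyme that reduces thioredoxin, was 8.16, 7.99 and 7.90 in controls and 8.51, 8.31 and 8.75 at 48 hpi. Its log2 fold change was 0.50 ± 0.13 (adjusted p = 0.0899, and 0.0475 with the block), and all 3 of its probe sets were above 0. Srxn1, sulfiredoxin, which repairs overoxidized peroxiredoxins, was 6.81, 6.82 and 6.71 in controls and 7.31, 6.99 and 7.46 at 48 hpi. Its log2 fold change was 0.48 ± 0.13 (adjusted p = 0.0997, and 0.0545 with the block). All 3 genes had every injured value above every control, as did 17.2% of all genes. In each of the 3 the lowest injured sample was replicate 2.

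The peroxiredoxins, which reduce peroxides with electrons from thioredoxin, gave 1 rise among 3, while 4.97% of all genes rose. Prdx4, the member of the endoplasmic reticulum, was 10.06, 10.12 and 9.84 in controls and 10.63, 10.63 and 10.45 at 48 hpi. It rose 1.48-fold, and the differences within the 3 same-numbered pairs were 0.57, 0.51 and 0.61. On the log2 scale this was 0.56 ± 0.11 (adjusted p = 0.0348). The call was lost in all 6 fits that left out a sample (adjusted p from 0.0671 to 0.102). Of the 4 probe sets of Prdx4 1 was called, 2 others gave 0.39 and 0.21, and the last lay below the 20th percentile on every array and is not read. Prdx2, a cytosolic peroxiredoxin abundant in red cells, was 10.36, 10.54 and 10.07 in controls and 10.80, 10.88 and 10.71 at 48 hpi, without overlap. Its log2 fold change of 0.47 ± 0.13 had adjusted p = 0.106, and 0.0270 with the block. Of 4 measured erythroid markers 0 were called. Prdx3, of mitochondria, had a log2 fold change of 0.11 (adjusted p = 0.623).

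Of the 6 glutathione peroxidases 0 were called by limma and 1, Gpx7, was higher at an unadjusted p under 0.05 and with the block. Of all genes 14.6% were higher at that unadjusted p in limma and 8.77% with the block. All 6 peroxidases had log2 fold changes above 0. Gpx7, a peroxidase of the endoplasmic reticulum like Prdx4, was 8.79, 9.55 and 9.14 in controls and 9.68, 10.28 and 10.04 at 48 hpi. The groups did not overlap and the order of the replicates was the same in both, with pair differences of 0.89, 0.72 and 0.91. Gpx7 differed by 0.84 ± 0.22 (adjusted p = 0.0917), while with the block the SE was 0.09 and the adjusted p 0.00293. Gpx8, the second peroxidase of that compartment, had a log2 fold change of 0.22 (adjusted p = 0.541).

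Gpx1, the main cytosolic enzyme, was 12.53, 12.70 and 12.41 in controls and 12.59, 12.64 and 12.56 at 48 hpi. Its log2 fold change was 0.05, with a 95% interval from -0.19 to 0.28. Gpx4, which reduces lipid hydroperoxides in membranes, had a log2 fold change of 0.14 and an interval from -0.10 to 0.38. Gpx2 and Gpx3 varied far more between replicates than between groups. Gpx2, the epithelial form, was 8.17, 6.60 and 7.48 in controls and 8.67, 7.39 and 7.09 at 48 hpi, with an interval from -0.88 to 1.47. Gpx3, the secreted form, was 11.31, 10.19 and 10.22 in controls and 11.63, 10.22 and 10.57 at 48 hpi, with an interval from -0.77 to 1.23. In both genes the sample numbered 1 was the highest of its group. With the block the SE of Gpx3 fell from 0.43 to 0.10, and its adjusted p was 0.189.

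Enzymes acting on superoxide and on hydrogen peroxide itself went in both directions, with 0 of 4 called by limma. At an unadjusted p under 0.05 in limma 1 was higher and 1 lower, against 14.6% and 9.29% of all genes. Sod3, the extracellular superoxide dismutase, was 9.14, 8.75 and 8.11 in controls and 9.85, 9.19 and 9.06 at 48 hpi. Its groups overlapped, but each injured sample was above the control of the same number, and the log2 fold change of 0.70 ± 0.30 had adjusted p = 0.265, and 0.0148 with the block. Sod2, of mitochondria, was 9.55, 9.49 and 9.33 in controls and 9.93, 9.60 and 9.85 at 48 hpi. Its groups did not overlap, and the log2 fold change was 0.33 ± 0.12 (adjusted p = 0.179). Sod1, of the cytosol, was 11.45, 11.23 and 11.36 in controls and 11.25, 11.12 and 11.06 at 48 hpi, a log2 fold change of -0.21 ± 0.10 (adjusted p = 0.312). Cat, catalase of peroxisomes, was 9.51, 9.30 and 9.53 in controls and 9.25, 9.21 and 9.06 at 48 hpi. All its injured values lay below the controls, with a log2 fold change of -0.27 ± 0.10 (adjusted p = 0.206), and its second probe set gave -0.34.

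The glutathione S-transferases join glutathione to electrophiles. None of the 11 measured was called by limma, and 7 of the 11 lay below 0 (median log2 fold change -0.16). At an unadjusted p under 0.05 in limma 0 were higher and 1 lower, against 14.6% and 9.29% of all genes. Gstm1 was 10.14, 9.68 and 9.87 in controls and 9.70, 8.99 and 8.77 at 48 hpi. Its groups overlapped narrowly, and all 4 of its probe sets were below 0. The log2 fold change of -0.74 ± 0.24 had adjusted p = 0.153, and 0.0184 with the block. Gstm1 was called lower without 48 hpi replicate 1 (adjusted p = 0.0350) and without both samples numbered 1 (0.0386). The probe set used for Gstm1 is of a design that can cross-hybridize with related transcripts (suffix _x_at), as are those of Gss, Gsto1, Pgd and Tkt. Those used for Gclc, Srxn1 and Mt1 carry another suffix, _s_at, and were not assessed for cross-hybridization.

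Gsta3 and Gsta4, of the alpha class, had the widest spread. Gsta3 was 8.11, 7.01 and 7.93 in controls and 8.13, 6.32 and 5.78 at 48 hpi. In the pair numbered 1 it differed by 0.02, and in the pair numbered 3 by -2.15. Gsta3 had a log2 fold change of -0.94 ± 0.59 (adjusted p = 0.445). Gsta4 was 9.58, 8.44 and 9.15 in controls and 9.55, 8.18 and 7.97 at 48 hpi, with a log2 fold change of -0.49 ± 0.45 (adjusted p = 0.605). In both genes 48 hpi replicate 1 was at the level of the highest controls while replicates 2 and 3 were low.

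Gsto1, of the omega class, was 11.68, 10.54 and 11.13 in controls and 11.63, 10.74 and 10.51 at 48 hpi. Mgst2, a microsomal enzyme that also makes leukotriene C4, ranged from 8.05 to 8.94 in controls and from 7.97 to 8.89 at 48 hpi. Neither differed between groups beyond the spread of its replicates, with log2 fold changes of -0.16 and -0.19. Gstp1, the pi class enzyme, lay at 0.08 with an interval from -0.20 to 0.37. Gstm2 (0.00), Gstm5 (-0.16), Gstt1 (-0.23), Mgst1 (0.15) and Mgst3 (0.25) were not called either.

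The spread of this family followed the replicate number. In 8 of the 11 transferases (72.7%), the sample numbered 1 was the highest of its group in both groups, as it was in 20 of all 43 members (46.5%) and in 24.2% of all genes. It was also the highest in both groups in 8 of 11 luminal epithelial markers, among them Scgb1a1, the club cell secretoglobin, and Cyp2f2, a club cell cytochrome. Scgb1a1 was 13.46, 12.69 and 12.50 in controls and 12.31, 9.90 and 8.72 at 48 hpi. Cyp2f2 was 12.24, 11.11 and 11.90 in controls and 11.71, 10.31 and 9.57 at 48 hpi. Both markers, like Gsta3, Gsta4 and Gstm1, were lowest in 48 hpi replicate 3. These are among the luminal markers with the largest differences. Of the 11, 8 had log2 fold changes below 0 and 3 above 0, which were Krt8 (0.19), Foxj1 (0.07) and Epcam (0.05). None of the 11 was called, and with the block Scgb1a1 and Scgb3a2 were lower. The part of remaining epithelium in the transferase values was not tested.

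**Figure D3:**
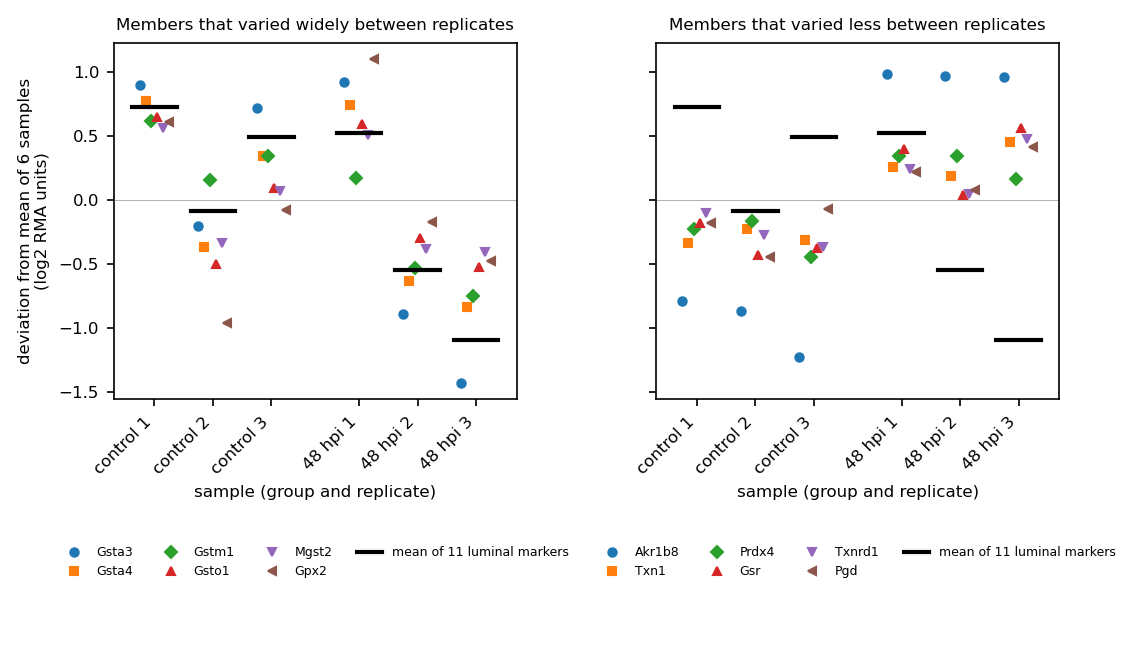
Deviation of each sample from the mean of the 6 samples (vertical axis, log2 RMA units) for 6 members that varied widely between replicates (left) and 6 that varied less (right), by sample (horizontal axis), with a black bar at the mean of the 11 luminal epithelial markers. On the left Gsta3, whose expression was 8.13 in 48 hpi replicate 1 and 5.78 in replicate 3, lies in the order of the black bars within that group, whereas on the right Akr1b8, with an expression of 9.15 to 9.18, is level over the injured samples.

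The metallothioneins, small cysteine-rich proteins that bind zinc and copper and scavenge oxidants, were high in 48 hpi replicates 1 and 3 and less so in replicate 2. Mt1 was 11.71, 11.25 and 10.54 in controls and 12.23, 11.49 and 12.04 at 48 hpi. Mt2 was 11.23, 10.80 and 10.31 in controls and 12.17, 11.31 and 12.17 at 48 hpi. Mt1 groups overlapped through control replicate 1, and those of Mt2 did not overlap. The pair differences were 0.51, 0.25 and 1.50 for Mt1 and 0.94, 0.50 and 1.86 for Mt2, so that in both genes the pair numbered 2 differed least. The log2 fold change was 0.75 ± 0.31 for Mt1 (adjusted p = 0.249, and 0.0779 with the block) and 1.10 ± 0.30 for Mt2 (adjusted p = 0.100, and 0.0303 with the block). A second, dimmer probe set of Mt1 gave -0.11. The promoters of both genes, printed above, held MRE cores, and the arrays do not tell which motif was in use.

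The pentose phosphate pathway supplies the NADPH used by glutathione and thioredoxin reductases. Of its enzymes, 0 of 3 measured members were called by limma, and all were above 0. At an unadjusted p under 0.05 in limma 1 was higher, against 14.6% of all genes. Pgd, the second NADPH-producing step, was 9.37, 9.11 and 9.48 in controls and 9.77, 9.63 and 9.97 at 48 hpi. Its groups did not overlap, and the log2 fold change was 0.47 ± 0.13 (adjusted p = 0.107, and 0.0192 with the block). Pgd had 4 probe sets with log2 fold changes of 0.47, 0.55, 0.65 and 0.51, of which 1 was called (adjusted p = 0.0106), so its call turned on the probe set used. Tkt and Taldo1, of the reversible part of the pathway, had log2 fold changes of 0.20 (adjusted p = 0.425) and 0.11 (adjusted p = 0.583).

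**Figure D4:**
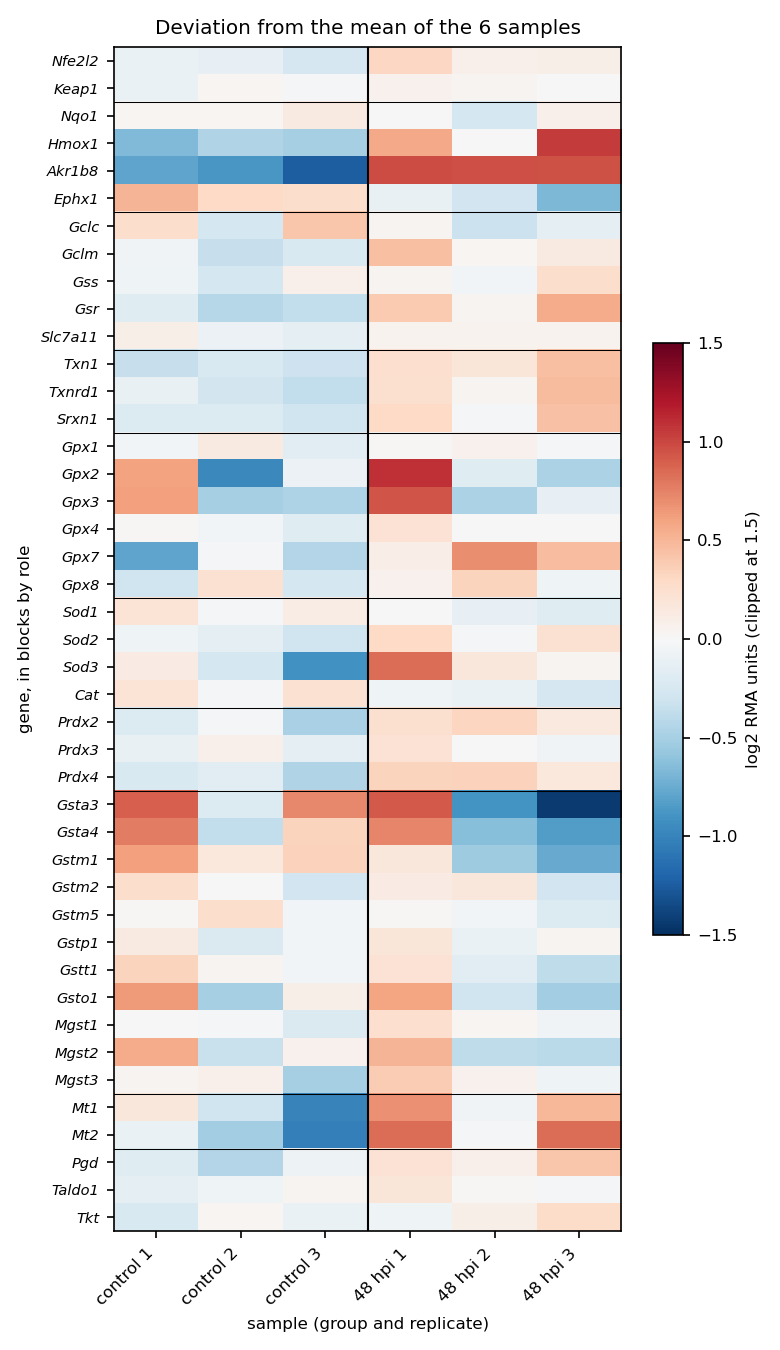
Deviation of each of the 6 samples (horizontal axis) from their mean, in log2 RMA units and clipped at 1.5 (red above and blue below the mean), for the 43 members (vertical axis, in blocks by role). Akr1b8, Txn1 and Prdx4 change colour between the groups in every sample, while Gsta3, Gsta4, Gsto1 and Mgst2 are high in the samples numbered 1 of both groups.

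Where a gene had several probe sets, these did not always go the same way. Of the 43 members 25 had more than 1 probe set. Of their probe sets 3, in Mgst1, Prdx4 and Sod1, lay below the 20th percentile on every array. Without these, 24 members had more than 1 probe set. In 12 of them all were above 0, in 5 all were below 0 and in 7 the signs differed. The 7 were Nfe2l2, Gss, Txn1, Sod1, Sod2, Mt1 and Tkt. Srxn1 had 4 probe sets, of which 2 gave 0.48 and 0.52 and the other 2 gave 0.00 and 0.02. For Sod1 the probe set used gave -0.21, and another gave -0.72 (adjusted p = 0.0797, and 0.0252 with the block).

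A further list of genes from the same pathways, chosen by role, held 85 genes, of which 80 were measured. Of these 3 rose (3.75%, against 4.97% of all genes) and 2 fell (2.50%, against 1.24%), with a median of -0.01. Pgls, which hydrolyses the lactone between the NADPH-producing steps of the pentose phosphate pathway, rose from 8.20, 8.28 and 8.04 to 8.85, 8.75 and 8.75, by 0.61 ± 0.09 (adjusted p = 0.0170). Abcc3, an exporter of glutathione and glucuronide conjugates, rose from 5.38, 4.92 and 5.24 to 6.24, 5.81 and 6.30, by 0.94 ± 0.17 (adjusted p = 0.0305). Glrx, glutaredoxin, which removes glutathione from protein thiols, rose from 6.26, 6.27 and 6.13 to 7.04, 6.63 and 6.90, by 0.64 ± 0.12 (adjusted p = 0.0349). In all 3 genes the groups did not overlap. In the 6 fits that left out a sample, Abcc3 and Pgls were each called in 2 and Glrx in 1. The call of Glrx was also lost with the mean of its probe sets and with the probe set of largest SD, and all 3 calls were lost without both samples numbered 1.

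The falls were in Txnip and Oxr1. Txnip, which binds and inhibits thioredoxin, was 10.92, 11.10 and 11.04 in controls and 10.33, 10.12 and 9.77 at 48 hpi. It had adjusted p = 0.0184, and 1 of its 2 probe sets passed. Oxr1, an oxidation resistance protein, was 10.13, 10.09 and 10.11 in controls and 9.70, 9.63 and 9.42 at 48 hpi, a log2 fold change of -0.53 ± 0.10 (adjusted p = 0.0315), in 1 of 3 probe sets. Txnip was called in 3 of the 6 fits that left out a sample and Oxr1 in 0, and Oxr1 was also lost with the mean of its probe sets and without both samples numbered 1. With the block 6 of the further genes were higher (7.50%, against 8.77% of all genes) and 11 lower (13.8%, against 4.64%). The 11 were Me1, Aldh1a1, Aldh2, Aldh3a1, Ephx2, Pir, Txnrd3, Txnip, Sesn1, Gsta2 and Oxr1, with log2 fold changes from -1.13 (Gsta2) to -0.37 (Ephx2). In 9 of these 11 the sample numbered 1 was the highest of its group in both groups, as in 24.2% of all genes. In 10 the lowest injured sample was replicate 3, in which the luminal epithelial marker mean was also lowest. The share of all genes lowest in that sample was not counted. The block favours genes whose same-numbered samples deviate together, so both counts depend on how the 11 were picked. The part of remaining epithelium in these values was not tested.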

How the data were processed

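RNA of 6 mouse tracheal mesenchyme samples was measured on 1 Affymetrix array each. The authors deposited log2 expression values made by RMA, which corrects background, quantile normalizes the arrays and summarizes each probe set. Software credited in the submitters' processing notes was Affymetrix Expression Console 1.1 and Partek 6.5, with RMA as the method. RMA hides a change shared by most genes and compresses the folds of dim genes. The number of arrays limits the precision.

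Of 45101 probe sets 64 Affymetrix controls were left out. The platform annotation named 1 gene for 34945 probe sets, more than 1 for 932 and no gene for 9160. Entrez identifiers matched 34741 of them to RefSeq (GRCm38.p6, used for names and promoters), which left 18193 genes, each with its probe set of highest mean. Control and 48 hpi were compared with limma 3.58.1 in R 4.3.3 (lmFit and eBayes, two-sided, group only, 4 residual degrees of freedom plus 3.21 from the shared spread), with Benjamini-Hochberg adjustment over 45037 probe sets. Errors of fold changes are SEs of this fit. The fit without the block was tested on simulated data in which the arrays varied independently. The fit with the block was not tested in this way.

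Replicate numbers are shared by the groups in the labels. Deviations from the group means of same-numbered samples correlated across probe sets at 0.62, 0.36 and 0.34. Between differently numbered samples the values ran from -0.43 to 0.18, and were above 0 only between numbers 2 and 3 (0.18 and 0.11). The numbers were therefore treated as pairs in the fit with the block and in the pair differences. The fit without the block, which gave the calls, ignored them. The pairing stood out most for the samples numbered 1. What a number marks is not given in the labels, and the pairing rests on these correlations. The fit with the block has 2 residual degrees of freedom.

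Members, lists and tests were chosen with earlier results of these data known. Values in every sample are given for called members and for a list of members fixed whatever their result, of which Prdx1, Prdx6 and G6pdx could not be given. Others are named by their fold change. Of the further genes those called are named. Marker lists of 11 kinds of cell or process were summarized. Of these, 3 of 9 neutrophil, 3 of 5 endothelial and 5 of 5 mitosis markers rose, while 4.97% of all genes rose. In the other direction 1 of 8 fibroblast and 2 of 8 chondrocyte markers fell, while 1.24% of all genes fell. None was called among 5 basal epithelial, 5 smooth muscle and 4 fat cell markers. With the block 4 neutrophil, 4 endothelial, 1 fibroblast and 2 fat cell markers were higher (8.77% of all genes). The block gave 1 fibroblast and 5 chondrocyte markers lower (4.64% of all genes).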

Additional observations from a re-analysis of the deposited data

How the results depend on the processing

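With the replicate number as a block, 12 members were higher and 2 lower, against 3 and 0 without it, and 6 further genes were higher and 11 lower, against 3 and 2. The block changed no other call of a member. Leaving out 1 sample gave 1 to 5 members higher and 0 to 1 lower, and 0 to 2 further genes higher and 0 to 1 lower, while 349 to 647 of all genes were higher and 17 to 98 lower, against 904 and 226 with every sample. Without 48 hpi replicate 2 the 5 were Hmox1, Akr1b8, Gsr, Txn1 and Srxn1, and in the other 5 fits Akr1b8 alone. Leaving out both samples numbered 1, chosen after seeing the data, gave 1 member higher (Akr1b8) and 1 lower (Gstm1), and 0 further genes higher and 2 lower (Aldh1a1 and Txnip), with 413 of all genes higher and 76 lower. The equal-variance test, which does not share the spread between genes, passed 0 members and 0 further genes in either direction, and 41 and 4 of all genes.

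Centring the arrays on their medians gave 5 members higher, as did adjustment over 1 probe set per gene, in both cases Hmox1 and Gsr beside the 3, and all genes called higher numbered 973 and 1097. Ephx1 was the 1 member lower with an intensity trend, after a second quantile normalization, with the mean of all probe sets and with adjustment over 1 probe set per gene. With the mean of all probe sets, Txn1 (adjusted p = 0.169) and Prdx4 (0.0751) were lost while Hmox1 and Pgd were called, and 6 further genes were higher. With the probe set of largest SD, Pgd was called as well and 4 further genes were lower. Leaving out dim probe sets changed no call of a member.

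Signs turned only in members that were not called. A second quantile normalization gave -8.56e-05 for Keap1 and -0.0425 for Gstm2. Without single samples log2 fold changes ranged from -0.0229 to 0.124 for Gpx1, from -0.18 to 0.67 for Gpx2, from -0.18 to 0.60 for Gpx3, from -0.14 to 0.15 for Gstm2, from -0.00393 to 0.17 for Gstp1, from -0.49 to 0.13 for Gsto1 and from -0.49 to 0.0403 for Mgst2.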
